A study of Mus musculus with 20 samples.

Results

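Type I interferon response genes were followed in CD8+ T cells sorted from mouse tumours. The set held 44 genes, taken by symbol from a table of 45777 genes: the type I interferon receptor, transcription factors and feedback genes of its pathway, and antiviral genes that interferon induces. Of the 44, 39 reached 1 FPKM in at least 5 of the 20 libraries and were tested, among 11794 genes tested in all. Oas2, Oas3, Oasl1, Ifi44 and Slfn5 did not reach that level and were not tested. The set was chosen with earlier results of these data known, so its shares beside those of all genes are not an independent test.

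The hosts were C57BL/6 mice with the human forms of PD-1, PD-L1 and 4-1BB, and they bore syngeneic MC38 tumours, a mouse colon carcinoma line, that overexpressed human PD-L1. Treatment began at a mean tumour volume of 150 to 200 mm3, and CD8+ cells were sorted on day 4. There were 4 groups of 5 libraries. The Combination group received ABL503 with pembrolizumab, the ABL503 group received ABL503, whose arms bind PD-L1 and 4-1BB, and the Pembrolizumab group received pembrolizumab, an antibody that blocks PD-1. What the Control group received is not given in the sources used here. Host genotype and tumour were the same in all 4 groups. Whether each library is a separate mouse is not stated, and p-values measure only the spread between libraries, which may be technical.

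Type I interferons are secreted proteins, interferon-beta and the interferon-alphas, that signal through a receptor of the chains IFNAR1 and IFNAR2. The receptor activates the kinases JAK1 and TYK2, which phosphorylate STAT proteins, and a transcription factor complex of these with IRF9, called ISGF3, forms. ISGF3 binds interferon-stimulated response elements in the promoters of antiviral genes, and USP18 and SOCS proteins damp the signal again. Many of the same genes also respond to interferon-gamma, which activated CD8+ T cells make. In tumours, type I interferon is known to act on dendritic cells and on T cells.

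Values are taken as FPKM, fragments scaled to transcript length and library size, though the deposited data name no unit. On that reading, levels can be compared between genes. Changes are differences of mean log2(FPKM + 1), first-named group minus second, and understate the fold change of genes with low values. A gene was called at a Benjamini-Hochberg adjusted p under 0.05 in limma, adjusted over all 11794 genes within a comparison. Sequencing depth is unknown, and no counting interval can be given.

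The sort was visible in the libraries. All 8 T cell markers were detected in every group, with summed levels of 4503 to 7615 FPKM over the 20 libraries. The 6 neutrophil markers summed to at most 1.09 FPKM in 19 libraries and to 13.7 in ABL503 4, where S100a9 and S100a8 carried the sum. Libraries of 1 group correlated at 0.9591 to 0.9772 over the genes tested. Genes of antigen-presenting cells were above 0 and differed between groups. The 12 dendritic cell markers summed to 111.8 to 169 FPKM in the Combination, 317.8 to 455.7 in ABL503, 141.1 to 227.1 in Pembrolizumab and 211.6 to 571.1 in Control. Ccr7, which T cells also express, and Cd74, the MHC class II invariant chain, carried most of that sum. The 8 markers of plasmacytoid dendritic cells, a main source of interferon-alpha, summed to 33.5 to 61.4, 38 to 82.4, 41.2 to 68.6 and 25.8 to 57.6 FPKM in the Combination, ABL503, Pembrolizumab and Control, and the groups overlapped. Among 12 macrophage and monocyte markers, Ly6c2, which CD8+ T cells also express, dominated. The other 11 summed to 19.5 to 32.6, 24.8 to 59, 24.7 to 66.1 and 14.5 to 104.9 FPKM in the same 4 groups. The 6 NK cell markers summed to 38.3 to 74.4, 34.8 to 61.1, 59 to 82.7 and 25.5 to 42.4 FPKM in those groups, without overlap between Pembrolizumab and Control. Klre1, a lectin-like receptor, carried most of the NK sum, and Ncr1 stayed under a group mean of 1 FPKM throughout. The 6 markers of CD4+ and regulatory T cells summed to 239.1 to 275.5, 166 to 220.0, 174.4 to 228.9 and 143 to 278.2 FPKM. Ctla4 and Il2ra, which activated CD8+ T cells also express, carried most of it, and Cd4 and Foxp3 stayed under a group mean of 1 FPKM.

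The core of an interferon-stimulated response element, which ISGF3 and related factors bind, was searched as GAAA, then any 2 bases, then GAAA. Both strands were searched, in the RefSeq promoters of GRCm38.p6, over the 250 bases before each start. A promoter was given for 34 of the 44 genes, and 12 of these 34 (35.3%) held the element core, against 3.5% of the 27025 genes with a promoter. The 250 bases before the start are printed below, with matches of the element core in capitals. Ifit3b, Bst2 and Oas1a were chosen by smallest p among called genes that held a match, so a match in them was fixed by the choice. Called genes without a match, Lgals3bp, Sp100 and Oasl2 among them, were passed over. Ifit3b, lower after pembrolizumab, held both of its matches on the opposite strand, ending 179 and 145 bases before the start (chr19:34607707-34607956, + strand). Bst2, higher in the Combination, held 2 overlapping matches, ending 121 and 115 bases before the start (chr8:71537473-71537722, - strand). Oas1a, lowest in ABL503, held 2 overlapping matches right before its start, ending 11 and 5 bases from it (chr5:120907526-120907775, - strand). Samd9l, which had the largest p of all members with a promoter in Pembrolizumab against Control, held no match (chr6:3399572-3399821, - strand).
Ifit3b: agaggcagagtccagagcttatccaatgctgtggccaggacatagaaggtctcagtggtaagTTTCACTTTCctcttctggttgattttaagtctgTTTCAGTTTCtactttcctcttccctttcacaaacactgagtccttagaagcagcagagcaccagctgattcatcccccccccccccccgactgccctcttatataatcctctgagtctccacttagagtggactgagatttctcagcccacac
Bst2: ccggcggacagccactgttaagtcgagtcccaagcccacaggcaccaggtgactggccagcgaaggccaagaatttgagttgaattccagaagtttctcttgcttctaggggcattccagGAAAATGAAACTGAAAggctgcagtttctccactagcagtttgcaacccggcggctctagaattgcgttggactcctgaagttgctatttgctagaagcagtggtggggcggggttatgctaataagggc
Oas1a: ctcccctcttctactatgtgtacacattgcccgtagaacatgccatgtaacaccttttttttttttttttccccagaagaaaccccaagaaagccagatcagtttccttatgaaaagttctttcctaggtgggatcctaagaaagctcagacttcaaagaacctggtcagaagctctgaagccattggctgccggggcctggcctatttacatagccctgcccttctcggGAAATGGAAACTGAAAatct
Samd9l: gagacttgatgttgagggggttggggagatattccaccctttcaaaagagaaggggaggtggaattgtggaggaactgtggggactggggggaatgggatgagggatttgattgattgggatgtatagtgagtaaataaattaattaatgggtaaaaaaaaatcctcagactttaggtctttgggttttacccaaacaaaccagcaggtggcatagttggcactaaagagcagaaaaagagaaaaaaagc
The match was in 3 of the 7 genes with a promoter that were higher in the Combination than in ABL503 (42.9%) and in 7 of the other 23 members tested (30.4%). The other 23 include genes called in other comparisons, and Ifit1, Ifit3 and Ifit3b are among their 7. A second sequence, TTC, then any 3 bases, then GAA, was searched in the same way. It was in 3 of the 7 genes higher in the Combination (42.9%) and in 3 of the other 23 (13.0%). Of all tested genes with a promoter, 7.1% held it. Among the printed promoters, those of Bst2 and Oas1a held it. In Bst2 it overlapped the element core, so that its end is in capitals, and in Oas1a it is not in capitals. The difference in shares was not tested.

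Levels of the set spanned a wide range in these T cells. Averaged over the 4 groups, 3 members stood at 100 FPKM or more, 18 at 10 to 100 and 18 of the tested members under 10. Ifi27l2a, a small interferon-induced membrane protein, was the most abundant. It averaged 621 ± 278 FPKM in the Combination, 541 ± 158 in ABL503, 465 ± 99.9 in Pembrolizumab and 586 ± 108 in Control (SD, n = 5 each), and spread widely within groups. Slfn2, a schlafen protein that keeps T cells quiescent, and Bst2, tetherin, which holds budding virus at the cell surface, were the other members above 100. Textbook antiviral genes such as Ifit2, Cmpk2, Rsad2, Ifih1 and Eif2ak2 averaged between 0.801 and 2.91 FPKM in every group. The group with the highest mean was the Combination for 20 of the 39 tested members, ABL503 for 3, Pembrolizumab for 2 and Control for 14. The group with the lowest mean was the Combination for 6, ABL503 for 20, Pembrolizumab for 8 and Control for 5.

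**Figure D1:**
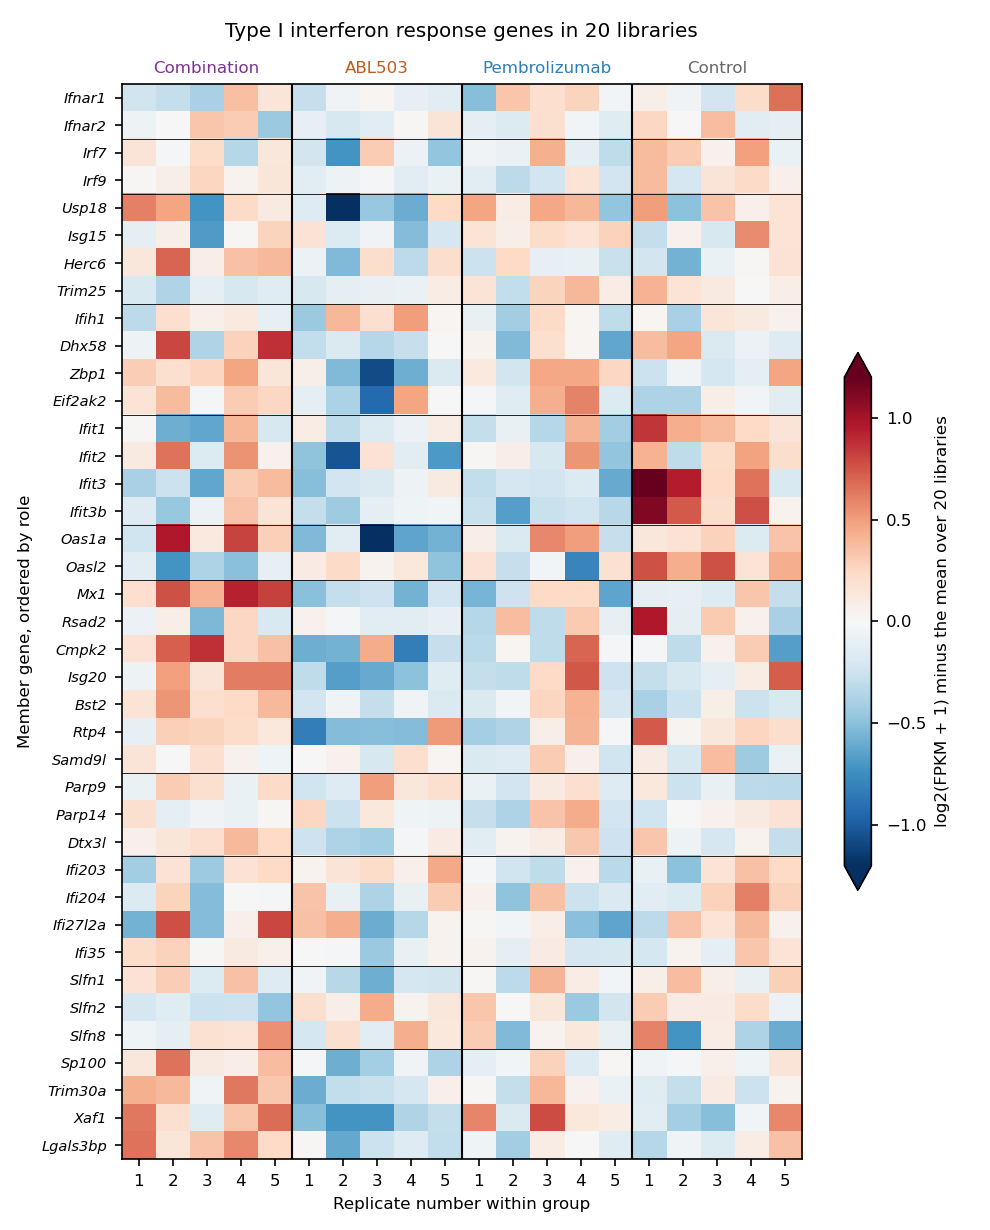
Colours give log2(FPKM + 1) of each of the 39 tested genes (down the page, by role) in each of the 20 libraries (across, Combination, ABL503, Pembrolizumab, Control), minus the gene's mean over all libraries, with the scale ending at 1.2 in both directions. Ifit1, Ifit3 and Ifit3b are high mainly in Control, whereas Mx1, Oas1a, Isg20, Zbp1, Xaf1 and Lgals3bp are high in the Combination and low in ABL503. By group mean, Zbp1 and Xaf1 are high in Pembrolizumab as well.

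The ligands of the pathway were hardly detected in these cells. Of 18 type I interferon genes in the table, 9 were at 0 in all 20 libraries, Ifnb1 among them, and 17 stayed under 1 FPKM in every library. The RNA of sorted T cells says nothing of interferon made by other cells of the tumour. Interferon-gamma was abundant instead. Ifng averaged 891 ± 166 FPKM in the Combination, 854 ± 106 in ABL503, 963 ± 169.8 in Pembrolizumab and 635 ± 151 in Control. It was higher in Pembrolizumab than in Control by 0.61 (SE 0.17, adjusted p = 0.034), and the change was 0.50 (SE 0.17, adjusted p = 0.051) for the Combination and 0.45 (SE 0.17, adjusted p = 0.28) for ABL503 against Control.

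Both receptor chains were present at steady levels. Ifnar1 measured 11, 10.6, 9.79, 17.2 and 14.7 FPKM in the Combination and 10.7, 12.7, 13.4, 12.2 and 12 in ABL503. It measured 8.94, 16.9, 15.3, 16.1 and 12.8 in Pembrolizumab and 13.9, 12.8, 11.1, 15.6 and 21.4 in Control. Its groups overlapped throughout. Ifnar2 measured 44.4, 46.5, 58.8, 57.6 and 33.7 FPKM in the Combination and 43.3, 40.4, 42, 46.8 and 51.7 in ABL503. It measured 42.8, 41.3, 53.1, 45.3 and 41.8 in Pembrolizumab and 55.1, 46, 60.3, 42 and 42.5 in Control. The groups of this chain overlapped too, and its level was above that of Ifnar1 in every library. Neither gene (Ifnar1 at chr16:91485238-91507441 (+ strand), Ifnar2 at chr16:91372783-91405589 (+ strand), GRCm38) was called in any comparison. The lowest adjusted p of Ifnar1 among the 6 comparisons of single groups was 0.44, and its largest change, ABL503 minus Control, was -0.24 (SE 0.18).

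Of the 6 comparisons between groups, the Combination against ABL503 called the most members, 10 of 39. Against ABL503, the Combination raised 9 of the 39 genes and lowered 1, where 2.29% and 2.24% of all tested genes were called in these directions. The 9 were the antiviral GTPase Mx1, the secreted lectin-binding protein Lgals3bp, the nuclear body protein Sp100, the oligoadenylate synthetase Oas1a, Trim30a, the apoptosis factor Xaf1, the nucleic acid sensor Zbp1, tetherin (Bst2) and the exonuclease Isg20. Slfn2 was the gene that fell. At an unadjusted p under 0.05, 18 were higher and 1 lower, against 9.67% and 10.8% of all genes. The median change of the 39 was 0.24, against -0.027 over all tested genes, and 30 of 39 changes were above 0, against 46.3% of all. The genes were spread over chromosomes 1, 2, 5, 7, 8, 11 and 16 and did not lie in 1 cluster.

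Mx1, a dynamin-like GTPase that blocks influenza virus in the nucleus of mouse cells, had the smallest p. Mx1 measured 7.62, 11.8, 8.98, 13.2 and 12.2 FPKM in the Combination and 4.29, 5.14, 5.31, 4.04 and 5.39 in ABL503. It measured 4.08, 5.31, 7.82, 7.82 and 3.83 in Pembrolizumab and 5.91, 6.02, 5.72, 8.41 and 5.15 in Control. Every Combination library was above every ABL503 library. The change was 0.99 (SE 0.18, adjusted p = 0.0043) against ABL503 and 0.69 (SE 0.18, adjusted p = 0.017) against Control. Laboratory strains such as C57BL/6 are known to carry a deletion in Mx1 and to make no working protein from it.

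Isg20, an exonuclease that degrades viral RNA, and Bst2 moved in the same direction among the antiviral genes. Isg20 measured 84.6, 124, 98.5, 136 and 136 FPKM in the Combination and 71.5, 55.5, 57.8, 62.7 and 79.8 in ABL503. It measured 72.4, 71.3, 104, 149 and 74.2 in Pembrolizumab and 72.2, 77.3, 81.2, 94.2 and 147 in Control. The Combination and ABL503 did not overlap, and the highest Pembrolizumab and Control libraries lay above all Combination libraries. Isg20 rose by 0.80 (SE 0.21, adjusted p = 0.03). Bst2 measured 112, 144, 115, 118 and 130.5 FPKM in the Combination and 85, 96.7, 81.6, 97 and 88 in ABL503. It measured 88, 97.5, 119, 133 and 86.6 in Pembrolizumab and 76.1, 83.4, 105, 83.1 and 87.6 in Control. Every Combination library was above every ABL503 and every Control library. Bst2 rose by 0.46 (SE 0.12, adjusted p = 0.026) against ABL503 and by 0.51 (SE 0.12, adjusted p = 0.0076) against Control.

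All 4 nuclear, TRIM and other effectors were called higher in the Combination than in ABL503, where 2.29% of all tested genes were. Lgals3bp measured 39.9, 27.9, 32, 37.9 and 29.9 FPKM in the Combination and 25.4, 16.1, 20.8, 22.4 and 20.2 in ABL503. It measured 24.1, 18.6, 26.7, 25 and 22.5 in Pembrolizumab and 19.5, 24.3, 22.2, 26.7 and 32.2 in Control. The Combination lay above both ABL503 and Pembrolizumab without overlap. Lgals3bp rose by 0.65 (SE 0.14, adjusted p = 0.011) against ABL503. Sp100 measured 83.4, 119.7, 81.8, 80.4 and 98.7 FPKM in the Combination and 75, 50.4, 57, 73.8 and 58.6 in ABL503. It measured 69.99, 74.3, 92.6, 68.1 and 77 in Pembrolizumab and 73.9, 74.7, 79.3, 73.3 and 84.5 in Control. The Combination was again above ABL503 without overlap and overlapped Pembrolizumab and Control. Sp100, an organiser of nuclear bodies, rose by 0.55 (SE 0.12, adjusted p = 0.013).

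Xaf1 measured 36.1, 26.5, 20.8, 29.2 and 37.2 FPKM in the Combination and 15.9, 13.6, 13.6, 17.7 and 18.7 in ABL503. It measured 35, 20.2, 40.2, 25.2 and 24.6 in Pembrolizumab and 21, 17.1, 15.9, 22.4 and 34.8 in Control. ABL503 had low values in all 5 libraries, below every Combination and every Pembrolizumab library. Xaf1, which antagonises the apoptosis inhibitor XIAP, rose by 0.85 (SE 0.20, adjusted p = 0.02). Trim30a measured 23.1, 22.4, 16.4, 26.8 and 21.4 FPKM in the Combination and 10.9, 13.6, 13.9, 14.6 and 17.7 in ABL503. It measured 17.1, 13.7, 22.7, 17.5 and 16 in Pembrolizumab and 15.2, 13.7, 18.2, 14 and 17.5 in Control. The lowest Combination library lay below the highest ABL503 library. Trim30a, an E3 ubiquitin ligase family member that restrains innate signalling in the mouse, rose by 0.60 (SE 0.14, adjusted p = 0.019).

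Zbp1 measured 97, 90.1, 93.9, 109 and 86.8 FPKM in the Combination and 82.6, 54.1, 36.7, 52.2 and 69.6 in ABL503. It measured 85.4, 67.2, 109, 109 and 93.8 in Pembrolizumab and 65.5, 76, 67.7, 72.6 and 109.7 in Control. ABL503 was the low group, below every Combination library, with a wide spread of its own. Zbp1, a sensor of left-handed nucleic acid that can start necroptosis, rose by 0.73 (SE 0.18, adjusted p = 0.024). The other sensors were not called. Dhx58 changed by 0.53 (SE 0.22, adjusted p = 0.18), Eif2ak2, the kinase PKR, by 0.41 (SE 0.21, adjusted p = 0.28), and Ifih1, the RNA sensor MDA5, by -0.14 (SE 0.18, adjusted p = 0.69).

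Oas1a measured 7.42, 18.3, 9.74, 16.4 and 11.1 FPKM in the Combination and 5.87, 8.04, 2.4, 5.38 and 5.71 in ABL503. It measured 9.44, 7.79, 13.8, 13 and 7.19 in Pembrolizumab and 9.88, 10.2, 11, 7.87 and 11.5 in Control. Oas1a was low in ABL503, and the lowest Combination library lay below the highest ABL503 library. Oas1a makes the short oligoadenylates that switch on RNase L, and rose by 1.07 (SE 0.25, adjusted p = 0.016). Its value is uncertain in 1 respect, since 57.6% of the 50-base words of its transcripts are also in Oas1g and the way reads were shared between copies is not given.

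Slfn2 went the other way. Slfn2 measured 89.3, 92.9, 86, 86.7 and 74 FPKM in the Combination and 118, 108, 140.4, 106 and 113 in ABL503. It measured 130.1, 104, 113, 75.3 and 88.6 in Pembrolizumab and 127, 110.5, 111, 120.0 and 98.1 in Control. All 5 Combination libraries lay below all ABL503 and all Control libraries. Slfn2 fell by 0.44 in the Combination against ABL503 (SE 0.12, adjusted p = 0.039) and its change against Control was -0.40 (SE 0.12, adjusted p = 0.034).

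**Figure D2:**
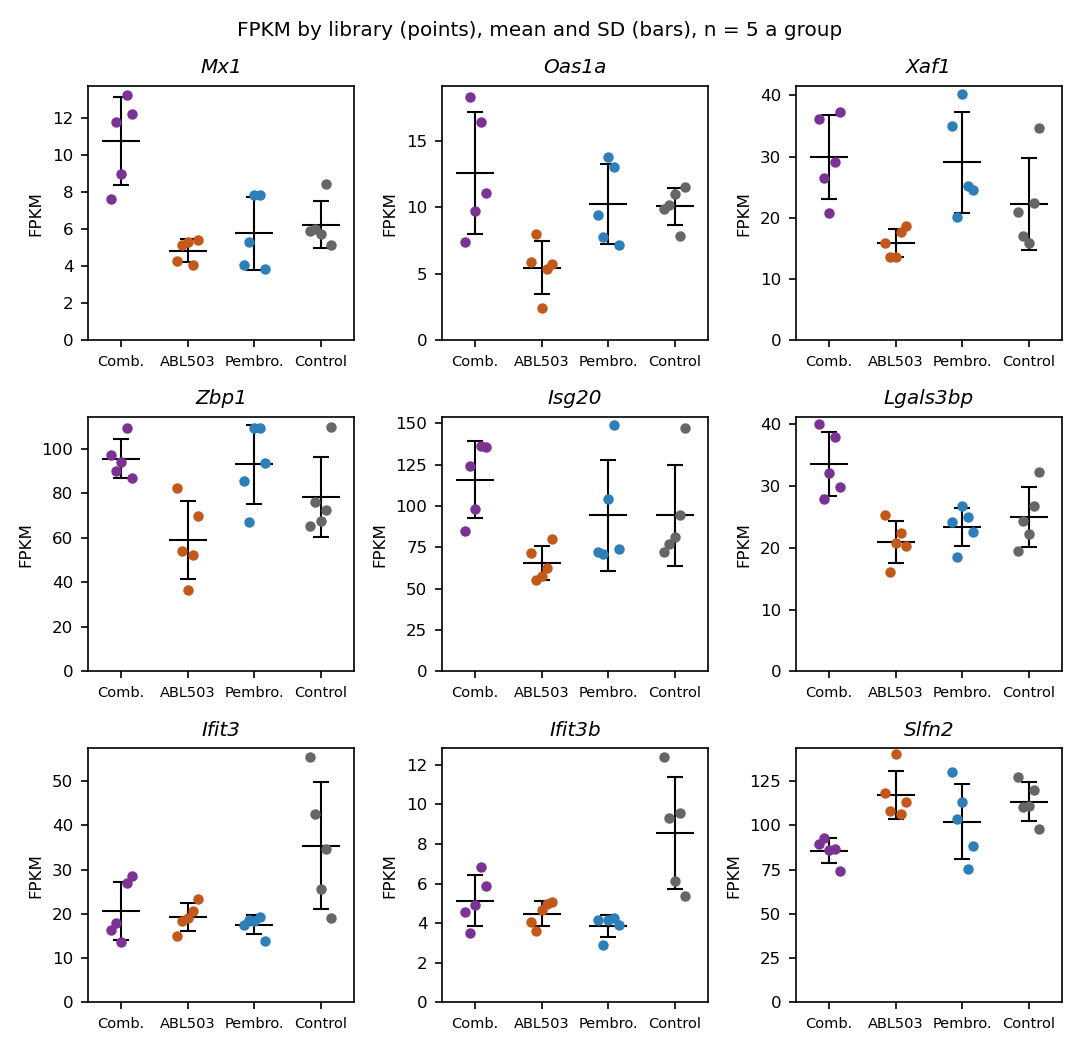
FPKM of 9 members (vertical axes, from 0) by group, from left to right Combination, ABL503, Pembrolizumab and Control, with 1 point per library, a bar at the mean and whiskers of 1 SD (n = 5). Mx1, Xaf1, Zbp1, Isg20 and Lgals3bp are lower in all 5 ABL503 libraries than in any Combination library, and Ifit3 and Ifit3b have their highest mean in Control.

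**Figure D3:**
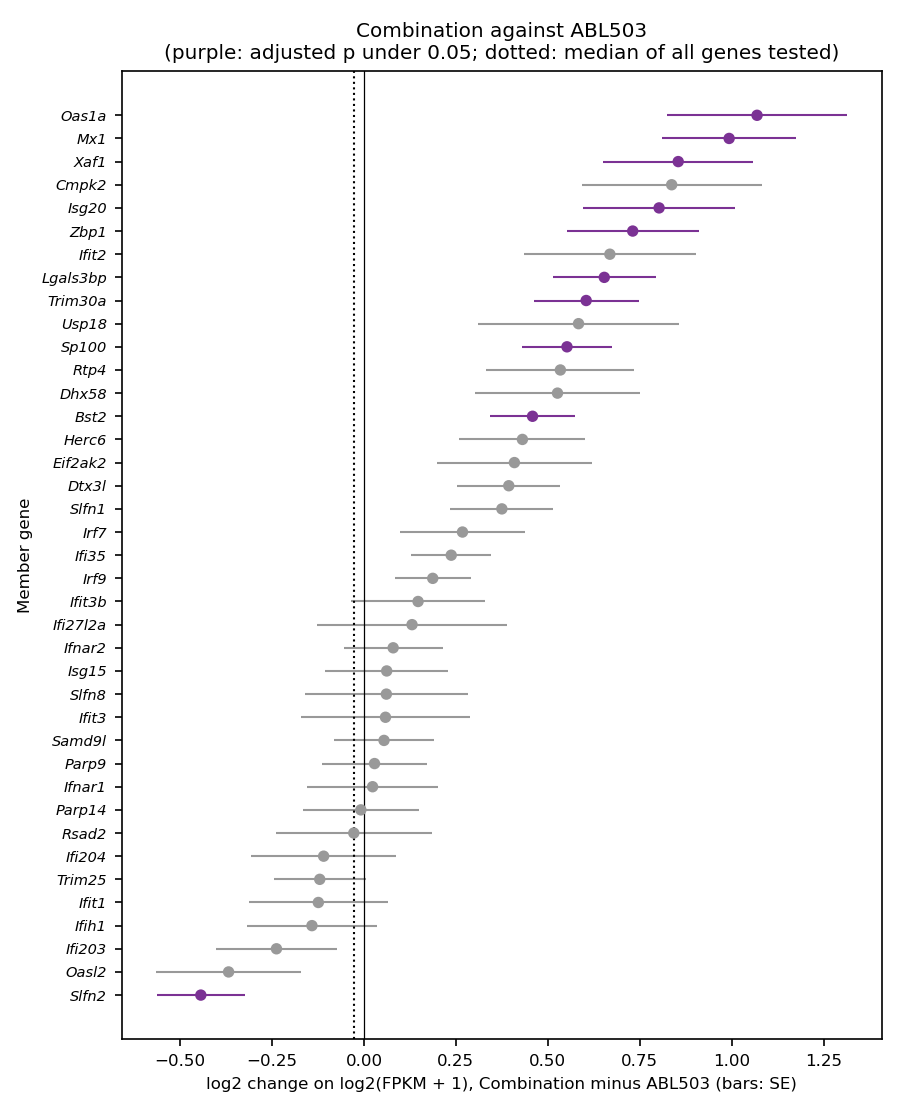
Difference of mean log2(FPKM + 1), Combination minus ABL503, for each of the 39 tested genes in order of size, with bars of 1 standard error, purple for the 10 called genes and a dotted line at the median of all tested genes. Oas1a stands at the top with 1.07 and Slfn2 at the bottom with -0.44.

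Leaving out 1 library at a time divided the 10 calls. Mx1, Oas1a, Sp100, Trim30a and Lgals3bp were called with each of the 10 libraries of the comparison left out. The other calls depended on single libraries: Zbp1 was not called without Combination 4 or ABL503 2, 3 or 4, Xaf1 without Combination 1 or 5 or ABL503 2 or 3, Bst2 without Combination 2 or 5 or ABL503 3 or 5, Isg20 without Combination 2, 4 or 5 or ABL503 2, 3 or 4, and Slfn2 whichever of the 10 was left out. The adjusted p then reached at most 0.062 for Zbp1, 0.059 for Xaf1, 0.076 for Bst2, 0.079 for Isg20 and 0.0996 for Slfn2, and 5 of the 10 calls stood without ABL503 3, where 1 further member was called, and 6 without ABL503 2 or Combination 5. With no filter on low values, Mx1, Sp100 and Lgals3bp were called and the other 7 had adjusted p from 0.051 to 0.1018, and when only the 2 groups were fitted Oas1a and Sp100 had 0.056 and 0.054.

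Beside these calls, 8 members lay higher in every Combination than in every ABL503 library, against 3.19% of all tested genes, and Slfn2 lay lower, against 2.74%. The 8 included Irf9 together with 7 of the called genes. The dendritic cell markers moved with the comparison in the opposite direction, since their sum was 111.8 to 169 FPKM in the Combination and 317.8 to 455.7 in ABL503, without overlap. Of the 9 tested markers none was called higher and 3 were called lower, Cd74, Ccr7 and H2-Aa. Clec9a, a defining gene of dendritic cells, was at 0 in both groups, and Flt3 stayed at or under 0.303 FPKM. The markers of CD4+ and regulatory T cells moved in the same direction as most members, at 239.1 to 275.5 FPKM in the Combination and 166 to 220.0 in ABL503, without overlap. None of their 4 tested genes was called by limma, with 1 higher and 0 lower at an unadjusted p under 0.05. The part of these cells in the result was not tested. In bulk RNA of sorted cells, fewer cells that express a gene and less RNA of it per cell cannot be told apart.

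ABL503 alone lowered no member past the threshold. None of the 39 was called in either direction against Control by limma, where 0.619% of all tested genes were called. At an unadjusted p under 0.05, 0 were higher and 12 lower, against 6.16% and 4.79% of all genes. The median change was -0.23, against -0.008 over all genes, and 31 of 39 changes were below 0, against 51.4% of all. Oas1a had the largest difference, -0.83 (SE 0.25, adjusted p = 0.16), and Ifit3b the smallest adjusted p, with -0.76 (SE 0.18, adjusted p = 0.064). Ifit1 and Ifit3b were lower in every ABL503 than in every Control library, against 0.890% of all genes.

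Adding ABL503 to pembrolizumab gave no call either. None of the 39 differed between the Combination and Pembrolizumab in limma, where 0.161% of all genes were called. At an unadjusted p under 0.05, 8 were higher and 1 lower, against 7.16% and 5.99% of all genes, and 31 of 39 changes were above 0, against 50.6%. Mx1 came closest, with 0.82 (SE 0.18, adjusted p = 0.059). Lgals3bp changed by 0.50 (SE 0.14, adjusted p = 0.14) and was higher in every Combination than in every Pembrolizumab library, as 1.59% of all genes were. The median change was 0.15. With array weights, which count noisy libraries less, 1 member was called in this comparison.

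Between the single agents, none of the 39 was called by limma, against 1.28% of all genes. At an unadjusted p under 0.05, 1 was higher in ABL503 and 7 were lower, against 8.05% and 5.48% of all genes. The smallest adjusted p belonged to Xaf1, with -0.80 (SE 0.20, adjusted p = 0.057), and Zbp1, with -0.67 (SE 0.18, adjusted p = 0.07). Xaf1 was lower in every ABL503 than in every Pembrolizumab library, as 1.18% of all genes were.

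The interaction asks whether the change of a gene under both agents differed from the sum of their separate changes. It is the Combination minus Pembrolizumab difference less the ABL503 minus Control difference. A value above 0 puts the Combination above that sum, also for a gene that both agents lowered, whose joint change can be the smaller. No member passed in limma, where 0.203% of all genes did. At an unadjusted p under 0.05, 15 of the 39 had a positive interaction and 0 a negative one, against 5.25% and 5.01% of all genes. The median was 0.44, and 32 of 39 were above 0, against 50.3% of all. Mx1 had an interaction of 1.12 (SE 0.26, adjusted p = 0.067), Ifit3b of 1.07 (SE 0.26, adjusted p = 0.082) and Lgals3bp of 0.74 (SE 0.20, adjusted p = 0.14). They reached it from different sides. Against Control, Mx1 differed by 0.69 in the Combination, -0.30 in ABL503 and -0.13 in Pembrolizumab. Ifit3b differed by -0.61 in the Combination, -0.76 in ABL503 and -0.93 in Pembrolizumab. By role, all 4 IFIT genes had interactions above 0, 0.44 to 1.07, as did the 7 other antiviral genes tested, 0.049 to 1.12, whereas 2 of the 3 schlafens were below 0.

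**Figure D4:**
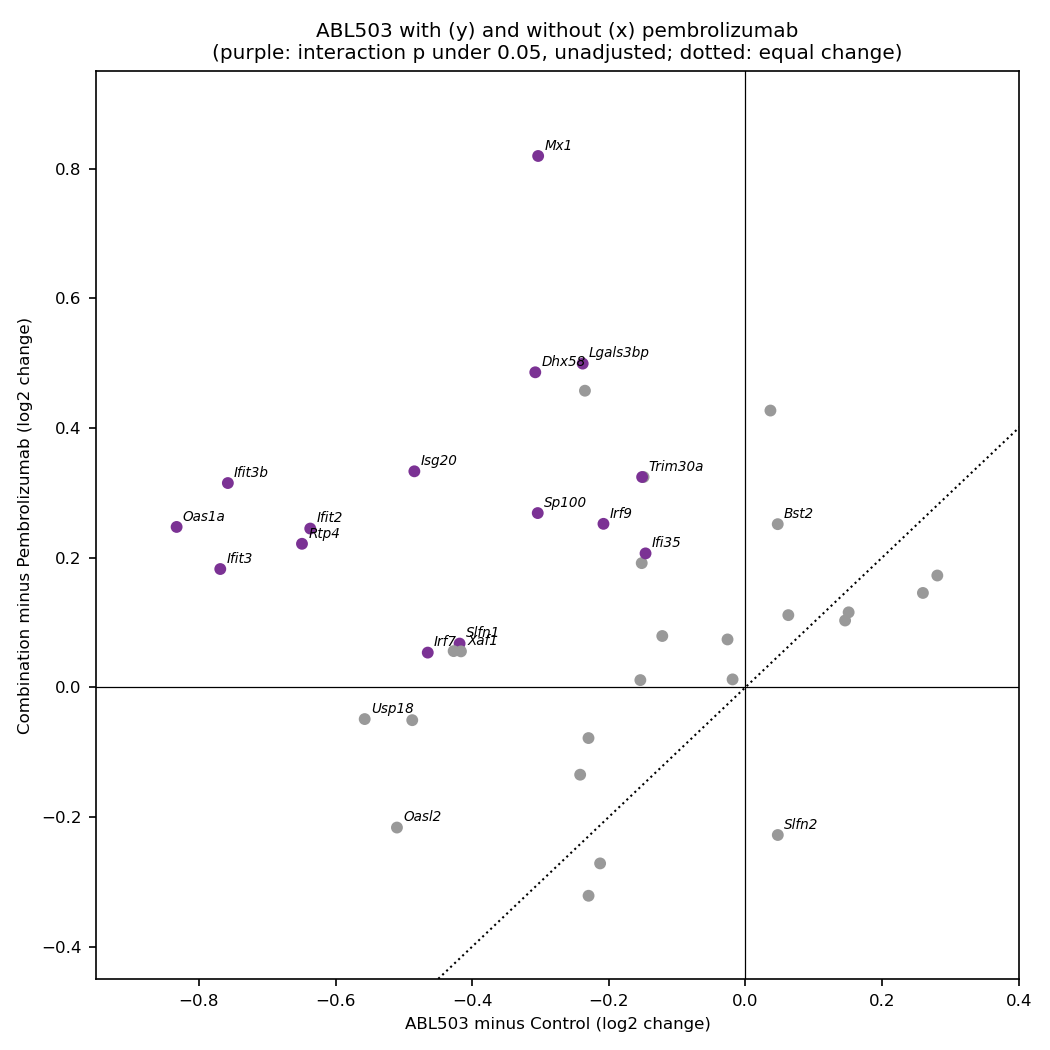
Each point is 1 of the 39 tested genes, with its log2(FPKM + 1) change of ABL503 against Control on the horizontal axis and of the Combination against Pembrolizumab on the vertical axis. Purple marks the 15 genes with an unadjusted interaction p under 0.05, and points above the dotted diagonal of equal change, 32 of 39, have an interaction above 0.

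Against Control, Pembrolizumab had lower levels of 2 of the 4 IFIT genes. Only Ifit3b and Ifit3 of the 39 were called, both lower, where 2.78% of all genes were lower and 2.77% higher. The median change was -0.084, and 26 of 39 changes were below 0, against 54.5% of all genes. IFIT proteins bind viral RNA that lacks the marks of host messenger RNA, and their 4 tested genes lie side by side on chromosome 19 (Ifit2 at chr19:34550694-34576419 (+ strand), Ifit3 at chr19:34583531-34588731 (+ strand), Ifit3b at chr19:34607970-34613401 (+ strand) and Ifit1 at chr19:34640871-34650009 (+ strand), GRCm38). Ifit3b measured 4.54, 3.52, 4.91, 6.84 and 5.87 FPKM in the Combination and 4.07, 3.6, 4.69, 4.96 and 5.06 in ABL503. It measured 4.14, 2.92, 4.14, 4.25 and 3.93 in Pembrolizumab and 12.4, 9.31, 6.15, 9.56 and 5.37 in Control. All 5 Pembrolizumab and all 5 ABL503 libraries lay below all Control libraries, and the Combination overlapped Control. Ifit3b fell by 0.93 in Pembrolizumab against Control (SE 0.18, adjusted p = 0.0058).

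Ifit3 measured 16.3, 18, 13.8, 26.9 and 28.5 FPKM in the Combination and 14.9, 18.3, 19.1, 20.7 and 23.4 in ABL503. It measured 17.4, 18.7, 18.4, 19.3 and 13.9 in Pembrolizumab and 55.4, 42.5, 25.7, 34.6 and 19 in Control. Control was high and spread widely, and its lowest library lay within the other groups. Ifit3 fell by 0.89 in Pembrolizumab (SE 0.23, adjusted p = 0.026). Ifit1 changed by -0.56 (SE 0.19, adjusted p = 0.087) and Ifit2 by -0.21 (SE 0.23, adjusted p = 0.68).

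In the Combination against Control, 3 of the 39 members rose, a share near the 6.34% of all genes called higher. A further 5 fell, where 6.24% of all genes were called lower. The rises were Mx1, Bst2 and Trim30a, the last by 0.45 (SE 0.14, adjusted p = 0.041). The falls were Oasl2, Slfn2 and 3 IFIT genes, of which Ifit3b changed by -0.61 (SE 0.18, adjusted p = 0.032), Ifit1 by -0.61 (SE 0.19, adjusted p = 0.038) and Ifit3 by -0.71 (SE 0.23, adjusted p = 0.046). The median over the 39 was 0.026. Bst2 was higher in every Combination than in every Control library, against 4.42% of all genes, and Trim25, Oasl2 and Slfn2 were lower, against 4.43%. All 3 treated groups were compared with the same Control libraries, so their changes are not independent of each other.

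Oasl2, an oligoadenylate synthetase-like protein with ubiquitin-like domains, was low everywhere. Oasl2 measured 0.714, 0.142, 0.458, 0.332 and 0.755 FPKM in the Combination and 1.02, 1.2, 0.936, 1.06 and 0.349 in ABL503. It measured 1.12, 0.558, 0.837, 0.0883 and 1.13 in Pembrolizumab and 2.19, 1.55, 2.21, 1.11 and 1.54 in Control. Control was above the Combination without overlap, at levels near 1 FPKM. Oasl2 fell by 0.88 in the Combination against Control (SE 0.20, adjusted p = 0.0068), and its change in Pembrolizumab was -0.66 (SE 0.20, adjusted p = 0.054).

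Ifit3b was called in Pembrolizumab against Control with each library left out and under each other setting tried, and so were Oasl2, Mx1 and Bst2 in the Combination against Control. The IFIT calls otherwise leaned on single libraries. Control 1 held the highest Ifit3, Ifit3b and Ifit1 values, and without it the adjusted p was 0.076 for Ifit3 in Pembrolizumab against Control, and 0.13 for Ifit3, 0.098 for Ifit3b and 0.11 for Ifit1 in the Combination against Control. The Ifit3 call against Control was also lost without Pembrolizumab 1 or 5 or Control 2 or 4. In the Combination against Control, calls also ended for Ifit1 without Combination 2, 3 or 5 or Control 2 or 3, for Ifit3 without Combination 1, 2 or 3 or Control 2 or 4, and for Ifit3b without Combination 1 or 2 or Control 2 or 4. Slfn2 lost its call there without Combination 1, 4 or 5 or Control 1, 2, 3 or 4, and Trim30a without Combination 1, 2, 4 or 5 or Control 1, 2 or 4. These 5 calls also ended with no filter on low values, with adjusted p of 0.081 to 0.1327, and when only the 2 groups were fitted the IFIT genes and Trim30a had 0.060 to 0.1259. Rescaling to equal sums ended Trim30a (adjusted p = 0.075), array weights ended the 3 IFIT calls (0.057 to 0.082), and a replicate block ended Trim30a (0.057) and Ifit3 (0.063). In Pembrolizumab against Control, Ifit3 had an adjusted p of 0.085 with no filter and 0.056 when only the 2 groups were fitted. Ifit3 and Ifit3b cannot be told apart fully, since 51.2% of the 50-base words of Ifit3 transcripts are also in Ifit3b and the counting of such reads is not given. Genes on the marker lists of other cells moved in these comparisons too. The 6 tumour and epithelial markers summed to 3.527 to 7.735 FPKM in the Combination, 4.723 to 10.54 in Pembrolizumab and 7.741 to 12.93 in Control. Of the 3 tested, 1 was called lower in the Combination, where 6.24% of all genes were, and none was called in Pembrolizumab. The plasmacytoid dendritic cell markers had medians of 49.0 FPKM in the Combination, 57.2 in Pembrolizumab and 33.6 in Control, and 1 of the 6 tested, Irf8, was called, higher in both treated groups. Yet 5 of the 6 changes were below 0 in the Combination against Control, and 4 in Pembrolizumab against Control. Of the 9 dendritic cell markers tested, 1 was called higher and 4 lower in the Combination, where 6.34% and 6.24% of all genes were. In Pembrolizumab 2 were called higher and 1 lower, where 2.77% and 2.78% of all genes were. Of the 2 NK cell markers tested, Klre1 was called, higher by 0.94 (SE 0.21, adjusted p = 0.0069) in the Combination and by 1.17 (SE 0.21, adjusted p = 0.0034) in Pembrolizumab. Siglech, a defining gene of plasmacytoid dendritic cells, averaged 2.29 ± 1.72 FPKM in the Combination, 2.45 ± 1.88 in Pembrolizumab and 7.85 ± 5.25 in Control, so it ran against the sum of its list, to which Irf8 contributed most, and it was called in neither comparison. The part of such cells in the IFIT result was not tested.

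None of the 2 transcription factors and 4 feedback and ISG15 genes was called in any of the 9 comparisons by limma. In the Combination against ABL503, 0 of the 2 and 2 of the 4 were higher at an unadjusted p under 0.05, and none lower. Irf7 measured 37.6, 33.4, 39.5, 26.3 and 37.1 FPKM in the Combination and 28.7, 20.1, 41.8, 32 and 23.9 in ABL503. It measured 32.8, 31.9, 45.5, 31.1 and 27.1 in Pembrolizumab and 44, 41.8, 34.8, 47.9 and 31.8 in Control. Irf7, the factor that amplifies interferon production, was lowest in ABL503, but the groups overlapped. Its changes were 0.27 (SE 0.17, adjusted p = 0.39) for the Combination against ABL503 and -0.47 (SE 0.17, adjusted p = 0.29) for ABL503 against Control. Irf9 measured 26, 27.1, 31.1, 26.5 and 28.6 FPKM in the Combination and 23.5, 24.7, 25.3, 23.5 and 24.4 in ABL503. It measured 23.5, 20.6, 21.8, 29 and 21.9 in Pembrolizumab and 33.9, 22.3, 28.8, 30.5 and 26.9 in Control. Irf9, the DNA-binding part of ISGF3, had a narrow spread in ABL503 and lay above it in every Combination library. The change was only 0.19 (SE 0.10, adjusted p = 0.32), and its interaction was 0.46 (SE 0.15, adjusted p = 0.22).

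Usp18 measured 11.4, 10.3, 3.97, 8.6 and 7.82 FPKM in the Combination and 6.33, 2.42, 4.97, 4.42 and 8.66 in ABL503. It measured 10.3, 7.7, 10.2, 9.75 and 4.88 in Pembrolizumab and 10.6, 4.79, 9.37, 7.53 and 8.14 in Control. Usp18, which removes ISG15 from proteins and blocks IFNAR2, varied several-fold within groups and was not called, with 0.58 (SE 0.27, adjusted p = 0.24) in the Combination against ABL503. Isg15 measured 22.6, 26, 15, 24.9 and 29.8 FPKM in the Combination and 27.9, 21.8, 23.9, 16.9 and 21.4 in ABL503. It measured 27.8, 26, 28.9, 27.8 and 30.2 in Pembrolizumab and 20.04, 25.6, 21.4, 37.1 and 27.8 in Control. Isg15, the ubiquitin-like modifier, overlapped in all 4 groups, and its largest change among the single-group comparisons was -0.33 (SE 0.17, adjusted p = 0.4) for ABL503 minus Pembrolizumab. Herc6, the main ligase for ISG15 in the mouse, changed by 0.47 (SE 0.17, adjusted p = 0.077) in the Combination against Control. Trim25, a ubiquitin ligase of RNA sensing, changed by -0.35 (SE 0.12, adjusted p = 0.07) in the same comparison and was lower in every Combination than in every Control library.

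The remaining members gave no call. Parp9 measured 6.14, 8.32, 7.62, 6.11 and 7.83 FPKM in the Combination and 5.37, 5.74, 9.65, 7.29 and 7.6 in ABL503. It measured 6.12, 5.43, 7.13, 7.63 and 5.77 in Pembrolizumab and 7.19, 5.29, 6.06, 5.04 and 5.03 in Control. Parp9 partners the ligase Dtx3l, and these groups overlapped. Parp9 changed by 0.29 (SE 0.14, adjusted p = 0.19) in the Combination against Control, Dtx3l by 0.24 (SE 0.14, adjusted p = 0.27) and Parp14 by -0.027 (SE 0.16, adjusted p = 0.93). The start regions of Parp9 and Dtx3l overlap on opposite strands of chromosome 16. Whether strand was used in counting is not given, so their values may share reads. Ifi27l2a measured 356, 904, 368, 553 and 922 FPKM in the Combination and 673, 717, 349, 418 and 546 in ABL503. It measured 534, 518, 557, 373 and 341 in Pembrolizumab and 426, 672, 592, 695 and 547 in Control. All groups spread widely and overlapped, and the change was 0.13 (SE 0.26, adjusted p = 0.81) in the Combination against ABL503. Of the DNA-binding p200 proteins, Ifi203 changed by -0.24 (SE 0.16, adjusted p = 0.43) and Ifi204 by -0.11 (SE 0.20, adjusted p = 0.79) in the Combination against ABL503. Cmpk2, the nucleotide kinase next to Rsad2 on chromosome 12, just missed the threshold with 0.84 (SE 0.24, adjusted p = 0.054). Rsad2, viperin, changed by -0.028 (SE 0.21, adjusted p = 0.96), and Rtp4 by 0.53 (SE 0.20, adjusted p = 0.13). Samd9l changed by 0.054 (SE 0.13, adjusted p = 0.86) and Slfn1 by 0.37 (SE 0.14, adjusted p = 0.13). The 5 members not tested stayed low, with highest values over the 20 libraries of 0.265 FPKM for Oas2, 0.758 for Oas3, 1.9 for Oasl1, 0.692 for Ifi44 and 0.877 for Slfn5.

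Averaged over the presence or absence of ABL503, libraries with pembrolizumab had 7 members higher and 2 lower, where 6.22% and 7.33% of all genes were called. Bst2 had 0.36 (SE 0.08, adjusted p = 0.0074), Xaf1 0.62 (SE 0.14, adjusted p = 0.0082), Zbp1 0.49 (SE 0.13, adjusted p = 0.015), Trim30a 0.37 (SE 0.10, adjusted p = 0.021), Mx1 0.43 (SE 0.13, adjusted p = 0.031), Sp100 0.27 (SE 0.09, adjusted p = 0.046) and Oas1a 0.53 (SE 0.17, adjusted p = 0.048). Oasl2 had -0.52 (SE 0.14, adjusted p = 0.019) and Slfn2 -0.31 (SE 0.09, adjusted p = 0.022). Oas1a and Sp100 each lost this call when any 1 of 13 libraries was left out, and Mx1 when any 1 of 6 was. Oas1a also lost it under 6 of 7 other settings, with adjusted p of 0.0511 to 0.1379, and Sp100 under 4, with 0.0768 to 0.1135. With no filter on low values, Bst2 and Xaf1 were the members still called. None of the members called for this main effect was called in Pembrolizumab against Control. There the changes were 0.38 for Xaf1, 0.25 for Bst2, 0.25 for Zbp1 and 0.13 for Trim30a. They were -0.011 for Oas1a, -0.021 for Sp100, -0.13 for Mx1, -0.17 for Slfn2 and -0.66 for Oasl2. Averaged over pembrolizumab, ABL503 gave no call among the 39 in limma, where 0.772% of all genes were called. At an unadjusted p under 0.05, 0 were higher and 2 lower, against 7.43% and 6.17% of all genes.

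Other genes of the pathway were read from lists, chosen with earlier results of these data known as well. Of 12 JAK-STAT genes tested below the receptor, none was called in the Combination against ABL503 by limma, with 3 higher and 2 lower at an unadjusted p under 0.05, against 9.67% and 10.8% of all genes. In Pembrolizumab against Control 1 rose and 4 fell, where 2.77% and 2.78% of all genes were called. Irf8, a factor of the IRF family, rose by 1.53 (SE 0.17, adjusted p = 4.3e-05), and the falls included Pias1, an inhibitor of STAT proteins, with -0.50 (SE 0.11, adjusted p = 0.012), and Irf1 with -0.52 (SE 0.15, adjusted p = 0.047). In the Combination against Control 1 rose and 2 fell, where 6.34% and 6.24% of all genes were called. These were Irf8 with 1.39 (SE 0.17, adjusted p = 4.6e-05), Jak1, a kinase of the receptor, with -0.39 (SE 0.09, adjusted p = 0.0072), and Socs3, a feedback inhibitor, with -0.90 (SE 0.22, adjusted p = 0.013). Stat2 averaged 2.82 ± 0.459 FPKM in the Combination, 3.68 ± 0.595 in ABL503, 3.06 ± 0.809 in Pembrolizumab and 2.97 ± 0.362 in Control, and changed by -0.29 (SE 0.14, adjusted p = 0.25) in the Combination against ABL503.

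Of 56 other interferon-stimulated genes tested, 8 rose and none fell in the Combination against ABL503, where 2.29% and 2.24% of all genes were called. The median change of the 56 was 0.24, against -0.027 over all genes. They were led by Ly6c2, a surface protein of memory and effector CD8+ T cells, with 1.09 (SE 0.16, adjusted p = 0.0011), Lgals9, galectin-9, with 0.59 (SE 0.10, adjusted p = 0.0017), Epsti1 with 0.90 (SE 0.16, adjusted p = 0.003) and Shisa5 with 0.49 (SE 0.10, adjusted p = 0.0093). Against Control, the Combination raised 6 and lowered 1 of the 56, where 6.34% and 6.24% of all genes were called, and Ly6a, the stem cell antigen Sca-1, had 1.02 (SE 0.17, adjusted p = 0.0006). Against Pembrolizumab, where 0.161% of all genes were called, it raised 2 and lowered none, Ly6e with 0.79 (SE 0.11, adjusted p = 0.0019) and Lgals9 with 0.71 (SE 0.10, adjusted p = 0.0019). Lgals9 was the single gene of the 56 called for the interaction, at 0.97 (SE 0.13, adjusted p = 0.0046), where 0.203% of all genes were called. It measured 136 ± 12.7 FPKM in the Combination, 89.8 ± 6.99 in ABL503, 83.3 ± 9.58 in Pembrolizumab and 108 ± 12.6 in Control.

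Of 17 GTPases induced chiefly by interferon-gamma, none was called in the Combination against ABL503 by limma, with 4 higher and 0 lower at an unadjusted p under 0.05, against 9.67% and 10.8% of all genes, and a median change of 0.009. Gbp7, a guanylate-binding protein, was higher in Pembrolizumab than in Control, by 0.65 (SE 0.15, adjusted p = 0.013), and Tgtp2, a T cell GTPase, was lower, with -0.54 (SE 0.13, adjusted p = 0.017). Among 16 tested genes of nucleic acid sensing, 1 rose and 1 fell in the Combination against Control, shares near the 6.34% and 6.24% of all genes called in these directions. Tmem173, the STING adaptor, rose by 0.71 (SE 0.17, adjusted p = 0.0085), and Trex1, a DNA exonuclease that limits STING signalling, changed by -0.56 (SE 0.13, adjusted p = 0.0066). Il10rb, a shared receptor chain of interferon-lambda and IL-10, rose in the Combination against ABL503 by 0.78 (SE 0.14, adjusted p = 0.0042).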

How the data were processed

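RNA of sorted CD8+ tumour-infiltrating T cells was measured in 20 libraries made with the SMART-Seq v4 Ultra Low Input kit, per the labels' protocols. Per the submitters' processing notes, the authors used HISAT2, StringTie and GRCm38 (mm10); versions, annotation and counting rules are not given in the sources used here. The deposited values are taken as FPKM, an inference: the file names no unit, values are not whole and column sums run from 575918 to 654333. Low genes are affected most by this scale, since read counts and depth are not known.

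All libraries entered. A gene was kept if 5 or more libraries reached 1 FPKM, and limma 3.58.1 (R 4.3.3) was fitted to log2(FPKM + 1) with 1 mean per group, 16 residual degrees of freedom and trended, moderated variances. There were 9 comparisons, all two-sided: the 6 between groups, the interaction and a main effect of each agent. The steps were tested on simulated data. Summaries were made in Python 3.11.15 (pandas 2.3.3) and plots with matplotlib 3.10.9. Positions and shared 50-base words come from GENCODE M21 on GRCm38, and promoters from RefSeq on GRCm38.p6.

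The members and lists were chosen with earlier results of these data known. Named members were Ifnar1, Ifnar2, Irf7, Irf9, Usp18, Isg15, Ifit3 and Ifit3b, then up to 12 called members by smallest p, and the most abundant member of a role with none. Up to 4 genes of a list were named by smallest p, with Stat2, Ifng and Ifnb1, and 1 further gene of that rule is not reported here. Single values of other members follow their role in the text and were chosen after their values were seen. Alternatives were leaving out libraries, array weights, rescaling to equal sums, quantile normalization, no filter, a pseudocount of 0.1, an adjusted p under 0.1, the replicate block, and a fit of only the groups compared.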

Additional observations from a re-analysis of the deposited data

Results flagged for a closer look

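Among 84 groups of 5 libraries, those of the 21 named members, 3 held a library far from the other 4, where chance gives about 1 in 20. Ifit3b was low in Pembrolizumab 2, at 2.916 FPKM, against 3.927 to 4.252 in the other Pembrolizumab libraries. Mx1 was high in Control 4, at 8.414 FPKM, against 5.147 to 6.016 in the other Control libraries. Zbp1 was high in Control 5, at 109.7 FPKM, against 65.46 to 76.04 in the other Control libraries. It measured 86.81 to 109.4 in the Combination libraries, all below Control 5. Ifit3b was still called in Pembrolizumab against Control without Pembrolizumab 2, and Mx1 in the Combination against Control without Control 4.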

How the results depend on the processing

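Over 29 calls of members, other settings and left-out libraries gave 603 values. Of these 452 stayed past the threshold with the same direction, 151 missed it and 0 changed sign. The number of members called moved as follows, and the cause was not tested. In the Combination against ABL503 it was 10, and 3 with no filter on low values, 6 without Control 1 and ABL503 3, whose array weights were lowest, and 6 to 9 with 1 library left out. In the Combination against Control it was 8, and 3 with no filter, 5 with array weights, 4 with only the groups compared, 3 without that pair and 3 to 11 with 1 library left out (3 without Control 1 or 2, 4 without Combination 1 or 2 or Control 4, 5 without Combination 5). In Pembrolizumab against Control it was 2, and 4 at an adjusted p under 0.1, 1 with no filter, with only the groups compared or without that pair, and 1 to 4 with 1 library left out (1 without Pembrolizumab 1 or 5 or Control 1, 4 without Pembrolizumab 4). For the pembrolizumab main effect it was 9, and 15 at an adjusted p under 0.1, 2 with no filter, 5 without that pair and 6 to 13 with 1 library left out. The comparisons with 0 calls gave some elsewhere. ABL503 against Control gave 1 at an adjusted p under 0.1 or with quantile normalization, and 0 to 2 with 1 library left out (1 without ABL503 5, 2 without Control 5). The Combination against Pembrolizumab gave 1 at an adjusted p under 0.1 or with array weights, and 0 to 1 with 1 library left out (1 without Combination 1 or Pembrolizumab 3). ABL503 against Pembrolizumab gave 2 at an adjusted p under 0.1 or with array weights, and 0 to 2 with 1 library left out (1 without ABL503 1, 2 without Pembrolizumab 2). The interaction gave 2 at an adjusted p under 0.1, 1 with array weights, and 0 to 1 with 1 library left out (1 without Combination 1 or Pembrolizumab 4). The ABL503 main effect gave 0 throughout.

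Replicate numbers did not pair the libraries: deviations of libraries with the same number correlated at a median of 0.0259 (-0.1461 to 0.1066), and 5 of 20 libraries correlated best with their own number. With the replicate block the counts were 10, 7 and 2 for the Combination against ABL503, the Combination against Control and Pembrolizumab against Control, 7 for the pembrolizumab main effect, 1 for ABL503 against Pembrolizumab and 0 for the other comparisons. The calls lost were Ifit3 and Trim30a in the Combination against Control, where 1 further member was called, and Oas1a and Sp100 for the main effect. Rescaling shifted the median of all genes by at most 0.0425. Members under 10 FPKM are the least certain, since depth is unknown and the pseudocount of 1 weighs most on them.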
